A study of Mus musculus with 13 samples.

Results

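Mouse SM1 melanomas from mice that received no tumour-specific T cells were compared after the combination of dabrafenib and trametinib and after vehicle. The comparison used 4 of the 13 arrays of the series, which are the arrays labelled as control transfer with both drugs (2 arrays, numbered 2 and 3) and control transfer with vehicle (2 arrays, numbered 1 and 3). SM1 is a transplantable mouse melanoma line with the BRAF V600E mutation, so both groups come from a single tumour line. All 4 tumours grew in C57BL/6 mice, and all 4 hosts were given C57BL/6 splenocytes by adoptive transfer, the control for pmel-1 splenocytes, whose T cells recognise the melanocyte protein gp100. Dabrafenib inhibits BRAF and trametinib inhibits MEK. The question that the comparison answers is what both drugs together do to the tumour when no T cells against a known tumour antigen were added. The sources used here state no dose, duration, animal age or batch. Nothing in them says that arrays of a group came from separate animals. The p-values therefore rest on the spread between the arrays, and that spread may be technical.

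In melanoma with mutant BRAF, the kinase drives MEK and ERK without need of a growth factor, and ERK in turn induces ETS and immediate early transcription factors, cyclin D1 and its own inhibitors, the Sprouty and DUSP proteins. MITF is the master transcription factor of melanocytes, and it drives pigment genes through short DNA elements that contain the M-box core. ERK signalling is known to hold back parts of this pigment programme, and type I interferon acts on its target genes through a separate element, the interferon-stimulated response element.

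Intensities were deposited on a log2 scale, on which a difference of 1 is a 2-fold difference. Across 13785 genes tested, the vehicle arrays correlated with each other at r = 0.991 and the combination arrays at r = 0.992, while a vehicle and a combination array correlated at 0.938 to 0.956; genes are not independent replicates. The 3′ minus 5′ signal of the Gapdh and beta-actin control probe sets, a measure of RNA integrity, was 0.284 and 0.251 on the log2 scale on vehicle arrays 1 and 3 and 0.186 and 0.422 on combination arrays 2 and 3, so the groups overlapped. The melanocyte markers Dct (14.32 to 14.85), Pmel (12.34 to 14.14), Mlana (12.93 to 13.30) and Tyr (12.79 to 13.84) were high on all 4 arrays, whereas Tyrp1, another pigment enzyme, stayed between 4.87 and 5.50. That is under 5.79, the filter level used here as the edge of background. The vehicle arrays differed from each other in host tissue. Skeletal muscle markers were high on vehicle array 3 alone, where Acta1 read 9.90 against 6.01 to 6.26 on the other arrays, and the mean of 18 fibroblast markers was 8.18 on vehicle array 1 and 9.05 on vehicle array 3. Neither list's part in the results was tested, and counts with an array left out are given beside many of the lists.

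Some promoters of the genes that moved are shown first, because 3 of the gene lists below hold the letters of a known element in many of their promoters. RefSeq promoters (GRCm38.p6, 250 bases before to 50 after each start) were found for 11083 of the 13785 genes tested, 14142 promoters in all. The M-box core TCATGTG, on either strand, was in 2.25% of these promoters and in 5 of 11 promoters of the melanosome matrix, enzyme and channel list. TTTCNNTTT, letters of the interferon-stimulated response element, was in 7.96% of all promoters and in 13 of 18 of the type I interferon list. The E2F letters TTTGGCGC or TTTCCCGC were in 2.72% of all promoters and in 10 of 36 of the DNA replication list. The letters of 3 other elements were searched too. ACCGGAAG (ETS) was in 0 of 18 promoters of the ETS and immediate early list and 4.04% of all. TCACNCCAC (sterol response element) was in 1 of 25 of the sterol list and 1.21% of all. TGANTCA (AP-1) was in 0 of 18 of the ETS and immediate early list and 5.49% of all. The AP-1 letters were also in 5 of 18 promoters of the type I interferon list (27.8%) and 4 of 32 of the lysosome list (12.5%). Below, capitals mark these letters in 2 examples of each list, written 5′ to 3′ on the strand of the gene, with capitals in the reverse complement where the match is on the other strand. The Trpm1 window is chr7:64153663-64153729 (+), Tyr chr7:87493513-87493564 (-), Xaf1 chr11:72301582-72301628 (+), Samd9l chr6:3399572-3399616 (-), Cdc6 chr11:98907983-98908050 (+) and Mcm6 chr1:128359715-128359845 (-), all upstream of the start site. Such a match describes the letters and does not show that a factor binds there.
Trpm1: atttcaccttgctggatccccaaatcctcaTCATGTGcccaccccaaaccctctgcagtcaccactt
Tyr: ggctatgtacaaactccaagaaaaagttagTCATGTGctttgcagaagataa
Xaf1: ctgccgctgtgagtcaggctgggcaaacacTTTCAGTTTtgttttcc
Samd9l: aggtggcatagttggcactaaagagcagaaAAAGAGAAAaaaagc
Cdc6: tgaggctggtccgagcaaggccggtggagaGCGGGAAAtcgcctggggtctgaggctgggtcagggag
Mcm6: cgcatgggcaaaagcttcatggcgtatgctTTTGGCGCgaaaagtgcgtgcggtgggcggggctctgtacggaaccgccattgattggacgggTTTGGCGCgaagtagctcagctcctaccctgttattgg

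The combination moved a large part of the tumour transcriptome. Of 13785 genes tested with limma at an adjusted p under 0.05 (Benjamini-Hochberg), 2572 rose (18.7%) and 2302 fell (16.7%), together 4874 (35.4%). By 2-fold or more, 662 rose and 569 fell, and by 4-fold or more 116 rose and 80 fell. The median change over all tested genes was -0.00 (log2). In 9512 genes (69.0%) the 2 combination arrays lay on one side of the 2 vehicle arrays. This held for all 4874 genes that passed, which is no separate support, since the calls use the same values. Counts ranged from 3265 without combination array 3 to 3939 without vehicle array 1. Without combination array 3, 1505 genes fell, and without vehicle array 3, 1666 rose.

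**Figure D1:**
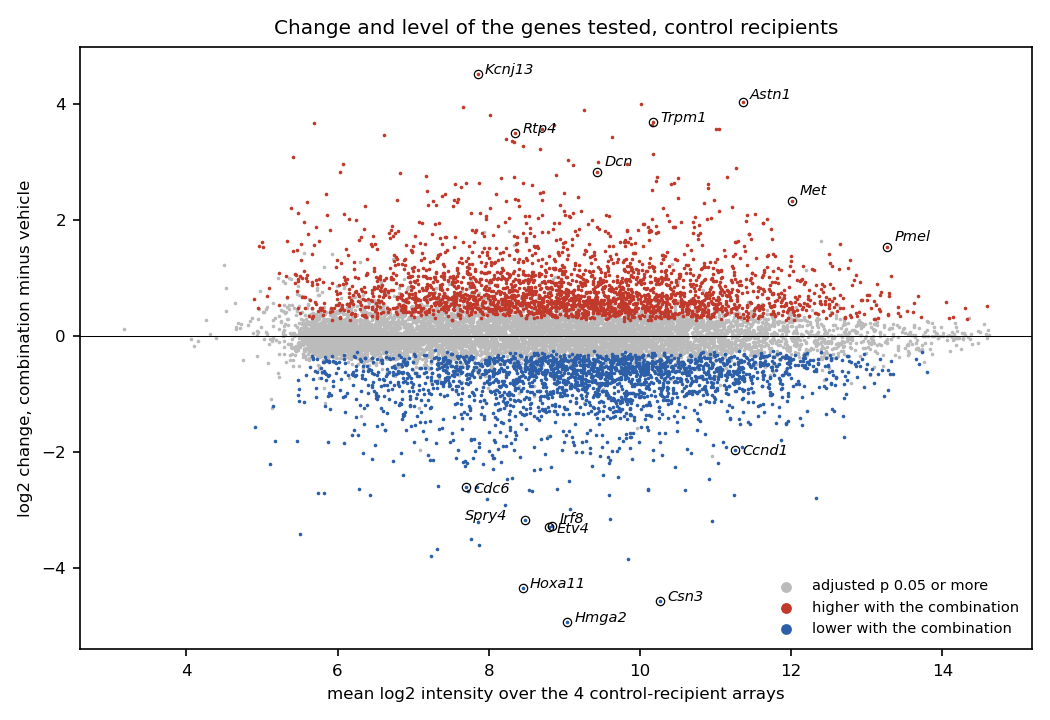
Log2 change (combination minus vehicle, y axis) against the mean log2 intensity over the 4 control-recipient arrays (x axis), 1 point per gene tested; red and blue points passed at an adjusted p under 0.05. Astn1 rises by 4.04 and Hmga2 falls to -4.93, and the calls spread over the whole range of intensity.

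Among the 12 largest rises by measured value were genes of several functions. Kcnj13, a potassium channel known from pigmented epithelia, read 5.44 and 5.76 on the vehicle arrays, under the filter level, and 10.63 and 9.58 on the combination arrays. It passed (adjusted p = 1.7e-06), but the size of its rise is not exact, since the vehicle side is not above background. Astn1, a neuronal adhesion protein, was already bright, at 9.31 and 9.36 against 13.19 and 13.56 (16.5-fold, adjusted p = 9.1e-08). The secreted proteins Pcolce2, an enhancer of procollagen processing, and Olfml1 rose from 7.92 and 8.12 to 12.13 and 11.92 and from 6.04 and 6.18 to 9.90 and 9.95. Hhatl read 7.07 and 7.02 against 10.57 and 10.79, and Tmem140 6.27 and 5.11 against 9.54 and 9.74. Prpmp5 reached 7.60 and 7.45 from 3.55 and 4.15, which is under the filter level. Gpr143, Trpm1, Sytl2, Cdh1 and Sema6d complete the 12 largest and are described with their groups.

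The largest fall was that of Hmga2, a chromatin protein of embryonic and tumour cells. It read 11.50 and 11.51 on the vehicle arrays and 6.98 and 6.16 on the combination arrays, a 30.6-fold fall (-4.93 ± 0.35, adjusted p = 4.4e-06) that the other 2 probe sets of the gene shared in direction. Csn3, which encodes the milk protein kappa-casein, varied more between the combination arrays, at 12.02 and 13.08 against 9.16 and 6.78 (-4.58 ± 0.68, adjusted p = 0.00042). The hedgehog ligand gene Dhh fell 14.4-fold, and the genes Fam184b and Pth2r fell 12.2-fold and 11.3-fold. Myrfl, at 8.95 and 9.32 on the vehicle arrays, and Hapln1, at 8.45 and 5.97, fell to levels under 5.79 on both combination arrays (adjusted p = 5.4e-07 and 0.00093), so the sizes of these falls are not exact. Itga8, an integrin subunit, went from 9.15 and 9.78 to 6.47 and 6.04 (9.26-fold).

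Transcripts downstream of ERK fell in part. Etv4, an ETS factor induced by ERK, read 10.51 and 10.38 on the vehicle arrays and 7.20 and 7.09 on the combination arrays. This 9.87-fold fall (-3.30 ± 0.12, adjusted p = 9.1e-08) had no overlap between groups and little spread within them. Spry4, a feedback inhibitor of the pathway, read 10.21 and 9.93 against 7.40 and 6.39 (-3.18 ± 0.64, adjusted p = 0.0026), and Spry1 fell by 1.13 ± 0.23. The immediate early gene Egr1 went from 10.43 and 9.48 to a mean of 7.99 ± 0.010 (SD, n = 2; -1.97 ± 0.34, adjusted p = 0.0012), and Ier3 fell by 0.90 ± 0.15. Ccnd1, which encodes cyclin D1, was lower by 1.96 ± 0.41, from 12.24 and 12.23 to 10.38 and 10.16. Of the 12 feedback genes tested 4 fell and 1 rose, with a median change of -0.36 against -0.00 over all genes; 0 rose without vehicle array 3 or combination array 3. Of 18 ETS and immediate early factors 5 fell and 0 rose (median -0.26), and fewer fell without either combination array. The median of this list was -0.014 without vehicle array 1 and -0.55 without vehicle array 3. It was -0.26 and -0.44 without combination arrays 2 and 3. The list of other ERK-dependent genes had 4 falls (Ccnd1, Hmga2, Plaur and Lif) and 1 rise among 10, with 0 rises without vehicle array 3. The 1 rise among the feedback genes was Il17rd (0.77 ± 0.20, adjusted p = 0.011), and that among the other ERK-dependent genes was Phlda1 (0.53 ± 0.12, adjusted p = 0.0059). Dusp6, the ERK phosphatase often used as a readout of the pathway, read 12.95 and 12.69 against 12.21 and 11.91, and its change of -0.76 ± 0.37 did not pass in the fit over 13 arrays (adjusted p = 0.14). It did pass in the fit of the 4 arrays alone (adjusted p = 0.015) and in the fit without the 7 pmel-1 arrays given a drug (adjusted p = 0.0067).

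**Figure D2:**
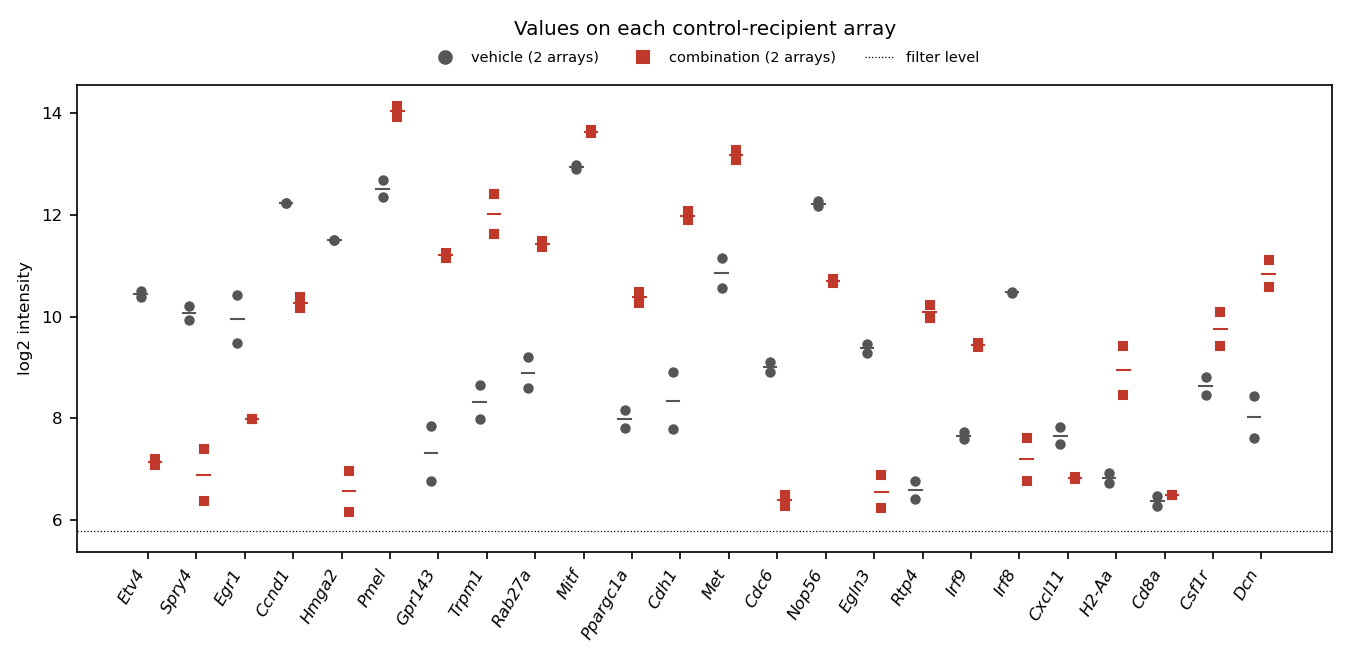
Log2 intensity of 24 genes on each of the 4 control-recipient arrays (grey circles vehicle, red squares combination, bars the mean of 2 arrays, dotted line the filter level of 5.79). Etv4, Hmga2 and Cdc6 fall and Pmel, Trpm1 and Rtp4 rise with no overlap between groups, while Cd8a stays between 6.29 and 6.51.

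Pigment genes rose, both those of the melanosome itself and those that move it. Among 14 genes of the melanosome matrix, enzymes and channels 8 rose and 0 fell, with a median change of 0.58. Pmel, whose product forms the melanosome fibrils and is the gp100 antigen, rose from 12.67 and 12.34 to 13.93 and 14.14, 2.88-fold (1.53 ± 0.15, adjusted p = 3.5e-05). Tyr, the tyrosinase that starts melanin synthesis, rose from 12.79 and 12.83 to 13.84 on both arrays (2.03-fold, adjusted p = 3.7e-05). Trpm1, a cation channel of melanocytes, rose from 8.66 and 7.99 to 12.40 and 11.63 (12.9-fold), as did its 3 other probe sets. Gpr143, a receptor of the melanosome membrane that is mutated in ocular albinism, rose from 7.85 and 6.78 to 11.25 and 11.16 (14.8-fold). Dct and Atp7a, the copper transporter that supplies tyrosinase, rose by 0.51 ± 0.09 and 0.71 ± 0.15. Mlana did not pass (0.15 ± 0.14, adjusted p = 0.45).

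In melanosome transport and biogenesis 12 of 19 genes rose and 0 fell, with a median of 0.87. The motor complex that carries melanosomes along actin rose in all 3 of its parts: Rab27a from 9.21 and 8.59 to 11.48 and 11.36 (5.72-fold), its linker Mlph from 8.14 and 7.74 to 10.81 and 11.08 (8.03-fold), and the motor Myo5a from 10.53 and 10.42 to 12.37 and 12.78 (4.28-fold). Sytl2, another effector of Rab27a, rose from 7.03 and 6.81 to 10.49 and 10.50 (11.9-fold). The small GTPases Rab32 and Rab38, which route enzymes to melanosomes, rose 5.94-fold and 3.06-fold. Hps3 and Hps4, subunits of the complexes mutated in Hermansky-Pudlak syndrome, rose 2.29-fold and 2.51-fold.

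The factors that govern the melanocyte lineage did not move in 1 direction, with 42.1% rising and 26.3% falling against 18.7% and 16.7% of all genes. Of 19 tested 8 rose and 5 fell (median 0.31); 4 rose without combination array 3 and 5 without either vehicle array. Mitf read 12.91 and 12.98 against 13.66 and 13.60, a rise of 0.69 ± 0.10 (adjusted p = 0.00029). Its relative Tfeb, a regulator of lysosomes, rose by 0.83 ± 0.11, and the receptors Ednrb and Mc1r rose 3.74-fold and 2.23-fold. Kit, the stem cell factor receptor, fell from 9.57 and 9.07 to 7.69 and 7.02 (3.90-fold). Id1 and Id3, inhibitors of helix-loop-helix factors, fell 4.50-fold and 5.29-fold, and Tfap2b fell from 7.95 and 9.30 to 6.25 and 5.81.

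Melanocytes share the neural crest with Schwann cells, and 8 of 18 Schwann and glial genes rose while 2 fell (median 0.27). Mbp, the myelin basic protein gene, read 10.15 and 9.49 against 12.62 and 12.82, a 7.44-fold rise that its 7 other probe sets shared in direction. Fabp7, a fatty acid carrier of glial precursors, rose 6.64-fold, S100b 3.85-fold and Cnp 2.26-fold. Dhh and Nes, which marks neural progenitors, were the falls. Sox10, the crest factor, read 13.20 and 13.24 against 13.51 and 13.70 (0.39 ± 0.10, adjusted p = 0.013), a change that did not pass without combination array 3 (0.29, adjusted p = 0.11) or without vehicle array 1 (0.37, adjusted p = 0.063).

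The epithelial and neural cadherins moved in opposite directions. Cdh1, the E-cadherin gene that ties melanocytes to keratinocytes, rose from 8.91 and 7.79 to 11.89 and 12.07 (12.4-fold, adjusted p = 1.9e-05). Cdh2, the N-cadherin gene, fell from 10.97 and 10.95 to 9.93 and 9.63 (2.26-fold, adjusted p = 0.00066). Snai1, a repressor of Cdh1, fell from 6.51 and 6.47 to 5.53 and 5.60, under the filter level. In the list of 16 cadherin and transition genes 4 rose and 4 fell; 1 to 2 rose and 2 to 3 fell when any array was left out. Among 19 receptor tyrosine kinases 2 rose and 4 fell, with a median of -0.08. Of all genes 18.7% rose and 16.7% fell, against 10.5% and 21.1% of these kinases and 25% and 25% of the cadherin list. Met, the hepatocyte growth factor receptor, rose from 11.16 and 10.55 to 13.28 and 13.07 (4.99-fold, adjusted p = 7e-06), and Tyro3 rose 2.63-fold. Igf1r fell from 10.08 and 9.53 to 8.17 on both arrays (3.11-fold), and Fgfr1 fell by 0.73 ± 0.16.

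Hox genes, which record position along the body axis, fell where they changed. Of 24 tested 12 fell and 0 rose (median -0.36), and 2 were under the filter level on all 4 arrays. Hoxa11 read 10.56 and 10.68 against 6.27 on both combination arrays, a 20.4-fold fall (adjusted p = 5.4e-07). Its antisense transcript Hoxa11os fell from 9.77 and 8.55 to 5.71 and 5.24, and the sources used here do not say whether probe sets of the pair can be told apart. Hoxa3 fell 6.43-fold, Hoxa4 4.42-fold, Hoxa2 3.43-fold and Hoxa9 2.68-fold, and Hoxb9 and Hoxc10 fell 2.28-fold and 3.08-fold.

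Of 31 semaphorins, plexins and neuropilins, which guide axons and cell movement, 8 rose and 5 fell, near the shares over all genes (18.7% and 16.7%); 5 rose without combination array 3 and 3 fell without vehicle array 3. Sema6d rose from 9.10 and 9.42 to 12.76 and 12.89 (11.8-fold), Plxna1 4.17-fold and Plxnc1, a receptor that melanocytes carry, 3.31-fold. Sema3g fell 4.32-fold. Of 27 collagens 6 rose and 1 fell (22.2% and 3.70%, against 18.7% and 16.7% of all genes). Both counts changed with the array left out. Col4a4 and Col18a1 of basement membranes rose 3.86-fold and 2.59-fold, while Col2a1, the cartilage collagen, fell from 10.73 and 10.41 to 7.94 and 7.23 (7.91-fold).

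Genes of the DNA replication machinery fell, and few mitotic genes passed in either direction. Of 39 replication genes 33 fell and 0 rose, with a median change of -0.99. Cdc6, which loads the replicative helicase, fell from 9.10 and 8.91 to 6.51 and 6.28 (6.12-fold, adjusted p = 5.9e-06). The helicase subunit genes Mcm3, Mcm4 and Mcm6 fell 2.87-fold, 2.09-fold and 2.81-fold, and Pcna, the sliding clamp, fell from 13.69 and 13.81 to 12.88 and 12.74. Orc6 and Pold2, of the origin complex and a polymerase, fell 2.58-fold and 2.61-fold. Of 29 mitosis and spindle genes 1 rose and 3 fell, with a median of 0.06. Mki67, the proliferation marker, read 11.56 and 11.89 against a mean of 11.92 ± 0.11 (SD, n = 2) on the combination arrays (0.20 ± 0.18, adjusted p = 0.44). The mitotic counts turned with the array left out: 3 rose and 0 fell without combination array 3, and 0 rose and 5 fell without combination array 2. The difference between the replication and mitosis lists was not tested.

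Regulators of entry into S phase fell more often than they rose, 10 against 4 of 21 tested (median -0.48). Ccne1, the cyclin E1 gene, read 10.83 on both vehicle arrays and 8.92 and 8.87 on the combination arrays (3.83-fold, adjusted p = 7e-06), and Ccne2 fell 3.76-fold. The E2F genes E2f1, E2f2 and E2f3 fell by 1.23 ± 0.12, 0.75 ± 0.11 and 0.83 ± 0.12. Rbl2, the p130 pocket protein gene of resting cells, rose by 0.76 ± 0.10. Cdk2 rose as well, from 11.25 and 10.97 to 12.02 and 12.29 (2.07-fold).

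Ribosome biogenesis genes fell: of 30 tested 27 fell and 0 rose, with a median of -0.99. Nop56, a core protein of the box C/D particles that modify ribosomal RNA, fell from 12.17 and 12.26 to 10.73 and 10.67 (2.86-fold). Rrp12 read 8.17 and 8.30 against 6.40 and 6.36 (3.62-fold), and Nhp2 fell 2.87-fold. Ncl, the nucleolin gene, fell by 0.82 ± 0.09 and Polr1a, the largest subunit of RNA polymerase I, by 1.01 ± 0.11. Of 17 heat shock chaperones 7 fell and 2 rose, with 4 falling without combination array 3 and 1 rising without combination array 2 or vehicle array 1. Hsph1 fell 2.45-fold and the mitochondrial chaperone genes Hspd1 and Hspa9 by 0.89 ± 0.11 and 0.91 ± 0.14, while Cryab, a small chaperone, rose 2.47-fold.

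Genes of glucose uptake and glycolysis fell, and 1 gene of the oxidative phosphorylation list passed. Of 26 hypoxia and glycolysis genes 12 fell and 1 rose (median -0.94); 6 fell without combination array 3 and 8 without vehicle array 1, and 0 rose without either combination array or vehicle array 3. Slc2a1, the glucose transporter GLUT1 gene, fell from 12.05 and 11.75 to 10.50 and 9.54 (3.69-fold, adjusted p = 0.0011). Hk2, which traps glucose in the cell, fell from 10.73 and 10.51 to 8.74 and 8.55 (3.95-fold), and the lactate carrier gene Slc16a1 fell 2.96-fold. Egln3, an oxygen sensor that hypoxia induces, fell from 9.47 and 9.29 to 6.88 and 6.24 (7.04-fold). Of 37 oxidative phosphorylation genes 1 rose, 0 fell and the median change was 0.03. That 1 gene was Ppargc1a, the coactivator of mitochondrial biogenesis, which read 8.16 and 7.80 against 10.49 and 10.26 (5.27-fold, adjusted p = 4.7e-05) with its 4 other probe sets in the same direction.

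Sterol synthesis fell and lysosomal genes rose. Of 26 sterol genes 16 fell and 0 rose (median -0.60). Fdps and Idi1, of the isoprenoid steps, fell 2.54-fold and 2.21-fold, and Hmgcs1 read 11.65 and 11.72 against 11.04 and 10.72. Of 37 lysosome and V-ATPase genes 22 rose and 2 fell (median 0.35), with 14 rising without combination array 3 and 0 falling without combination array 3 or vehicle array 1. Npc1, the cholesterol exporter of lysosomes, rose from 8.70 and 8.63 to 9.98 and 10.07 (2.57-fold), the membrane protein gene Scarb2 rose 2.31-fold and the protease gene Ctsd 1.89-fold. The M-box core was in 5 of 32 promoters of this list (15.6%) and in 1 of 18 of the melanosome transport list (5.56%).

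**Figure D3:**
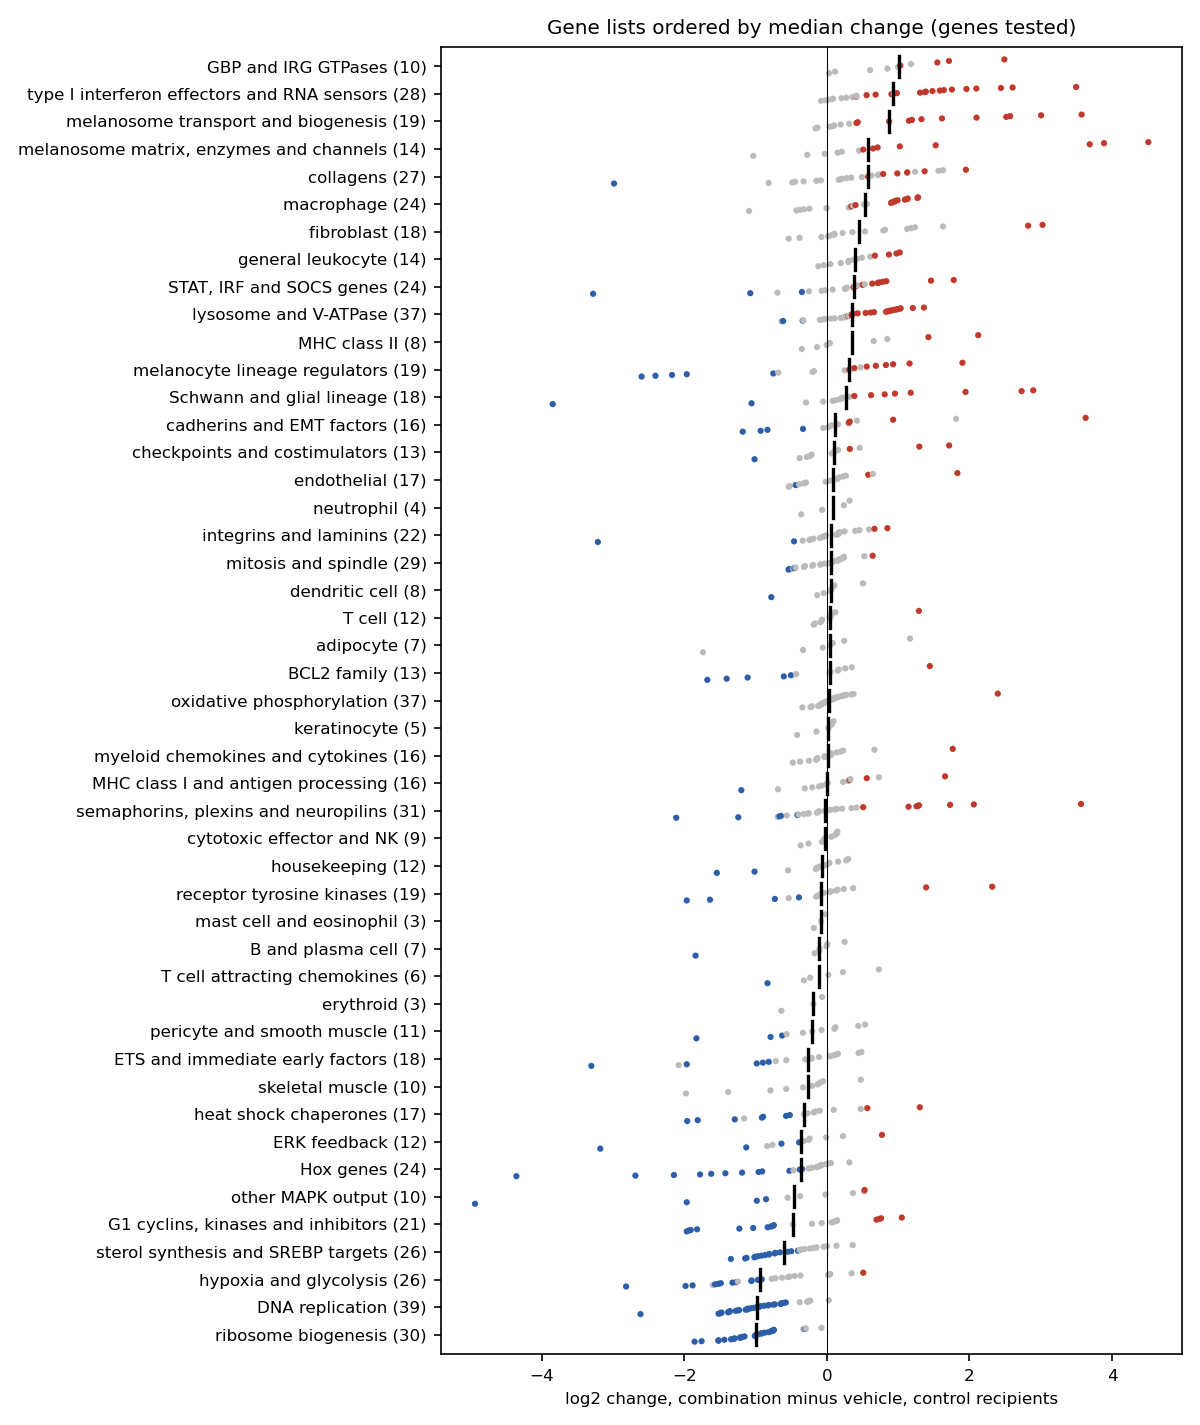
Log2 change of each tested member (points; red rose, blue fell, grey did not pass) of the gene lists, ordered by the list's median (black bar), with the number of members tested in brackets. Ribosome biogenesis and DNA replication lie lowest, at -0.99, and the interferon-inducible GTPases, type I interferon and melanosome transport lists lie highest, at 1.01, 0.92 and 0.87.

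Regulators of cell death did not move in 1 direction. Of 13 BCL2 family genes 5 fell and 1 rose, against 16.7% and 18.7% of all genes, and fewer fell without combination array 3 or vehicle array 3. The median change was 0.04, with 7 members reading higher and 6 lower. Bmf, a BH3-only killer gene, rose from 7.54 and 6.97 to 8.44 and 8.96 (2.72-fold, adjusted p = 0.00067). Bcl2l1, the BCL-XL survival gene, fell from 11.11 and 10.61 to 9.88 and 9.62 (2.16-fold), and the pro-death genes Bik and Bok fell 2.65-fold and 3.20-fold. Bcl2l11, which encodes BIM, read 8.88 and 8.91 against 8.98 and 8.92 on its brightest probe set (0.05 ± 0.15, adjusted p = 0.83), while its 4 other probe sets went the other way.

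Type I interferon genes rose in these tumours, whose hosts received no tumour-specific T cells. Of 28 effectors and RNA sensors 17 rose and 0 fell, with a median change of 0.92 against -0.00 over all genes; 10 rose without vehicle array 1 and 11 without combination array 3. Rtp4 read 6.41 and 6.78 on the vehicle arrays and 9.96 and 10.22 on the combination arrays, an 11.3-fold rise (3.50 ± 0.25, adjusted p = 4.6e-06). Samd9l and Xaf1, whose promoters are shown above, rose from 7.29 and 7.24 to a mean of 9.87 ± 0.19 (SD, n = 2; 6.08-fold) and from 6.62 and 7.13 to 9.41 and 9.23 (5.43-fold). The RNA sensor gene Ddx58 (RIG-I) rose 3.89-fold and Ifih1 (MDA5) 2.59-fold. Usp18, an interferon-induced brake on the receptor, rose to 6.80 and 7.47 from 4.94 and 5.13, under the filter level. Of 10 tested GBP and IRG GTPases 4 rose and 0 fell, with 2 rising without combination array 3. Irgm2 went from 6.10 and 5.77 to 8.37 and 8.47 (5.62-fold) and Gbp3 from 5.75 and 6.01 to 7.52 and 7.67 (3.28-fold). Each of these genes read under the filter level on 1 vehicle array, so the sizes of their rises are not exact.

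Among the signal carriers of interferon 10 of 24 STAT, IRF and SOCS genes rose and 3 fell; 4 rose without vehicle array 3 and 5 without combination array 2, and 1 fell without vehicle array 1 or combination array 2. Irf9, the DNA-binding part of the type I interferon complex, rose from 7.73 and 7.59 to 9.40 and 9.47 (3.43-fold, adjusted p = 5e-05). Irf4, a target of MITF in melanocytes, rose from 6.07 and 6.45 to 7.65 and 7.79 (2.75-fold). Irf8, better known from myeloid cells, read 10.48 and 10.47 on the vehicle arrays and 7.62 and 6.77 on the combination arrays. It fell 9.70-fold (-3.28 ± 0.37, adjusted p = 6.9e-05), with its other probe set in the same direction, while 12 of 24 macrophage markers rose, as given below. The receptor chain gene Ifnar1 rose by 0.64 ± 0.14 and Jak2 by 0.74 ± 0.14.

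In MHC class I and antigen processing 3 of 16 genes rose and 1 fell, with a median of 0.01. Over all genes 18.7% rose and 16.7% fell, so the share of rises was near that of all genes. H2-K1, a class I heavy chain gene, rose from 13.34 and 13.36 to 13.93 and 13.89 (1.47-fold), and Tapbp, the tapasin gene, from 9.02 and 8.93 to 10.50 and 10.77 (3.16-fold). Erap1, which trims peptides, fell from 7.36 and 7.77 to 6.31 and 6.42 (2.30-fold). The immunoproteasome genes Psmb8 and Psmb9 did not pass, at 0.01 ± 0.19 and -0.31 ± 0.23 (adjusted p = 0.97 and 0.34). In MHC class II, which professional antigen-presenting cells carry, 2 of 8 genes rose and 0 fell, against 18.7% of all genes that rose; 1 rose without combination array 3, and 1 rose and 1 fell without vehicle array 1. H2-Aa rose from 6.72 and 6.92 to 8.47 and 9.42 (4.36-fold, adjusted p = 0.002). Cd74, the invariant chain, read 7.25 and 7.63 against 8.52 and 9.20 (1.42 ± 0.38, adjusted p = 0.012), and did not pass without combination array 3 (1.08, adjusted p = 0.11) or without vehicle array 1 (1.23, adjusted p = 0.077).

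Of 13 checkpoint and costimulator genes 3 rose and 1 fell (23.1% and 7.69%, against 18.7% and 16.7% of all genes). Fewer rose when any array was left out, and more fell without vehicle array 1. Cd274, the PD-L1 gene, rose from 6.14 and 6.06 to 7.27 and 7.52 (2.46-fold, adjusted p = 0.0046), and Lgals9, the galectin-9 gene, from 7.63 and 7.84 to 9.51 and 9.40 (3.28-fold). Tnfsf9, the costimulator 4-1BB ligand gene, fell from 8.05 and 7.68 to 6.85 on both arrays. Of 6 chemokines that attract T cells 1 fell (16.7%, the same share as over all genes) and 0 rose. Cxcl9 stayed between 4.10 and 4.54, under the filter level, on all 4 arrays, and Cxcl11 fell from 7.50 and 7.83 to 6.81 and 6.85 (1.78-fold). Of 16 myeloid chemokines and cytokines 1 rose, Ccl11, an eosinophil attractant, from 5.63 and 6.13 to 7.61 and 7.68 (3.40-fold). The lower of its vehicle values is under the filter level, so the size of this rise is not exact.

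Macrophage markers rose in part (12 of 24), and few lymphocyte markers passed. In bulk tumour RNA, fewer cells of a type and less RNA per cell cannot be told apart. Of 24 macrophage markers 12 rose and 0 fell (median 0.54), and 4 rose without combination array 3 and 6 without vehicle array 1. The mean of the 24 markers was 7.80 and 7.84 on the vehicle arrays and 8.20 and 8.43 on the combination arrays. Csf1r, the receptor that macrophages need to live, read 8.45 and 8.81 against 9.43 and 10.10 (1.13 ± 0.32, adjusted p = 0.016), and did not pass without combination array 3 (0.80, adjusted p = 0.15) or without vehicle array 1 (0.96, adjusted p = 0.099). Cd68 rose by 0.90 ± 0.15 and Ms4a7 by 1.28 ± 0.28. Apoe, a lipid carrier that melanoma cells can also make, rose 2.18-fold. Ptprc, the pan-leukocyte CD45 gene, read 6.52 and 6.57 against 6.90 and 7.41 and did not pass (0.61 ± 0.27, adjusted p = 0.10), though it did in the fit of the 4 arrays alone (adjusted p = 0.048). Of 14 general leukocyte genes 4 rose and 0 fell, against 18.7% of all genes that rose, and 2 of 14 rose when any array was left out. The part of these cells in the rise of H2-Aa and of the interferon genes was not tested.

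Of 12 T cell genes tested 1 rose, Ikzf2, from 8.02 and 7.60 to 8.90 and 9.30. Cd3e read 6.69 and 6.95 against 6.86 and 6.65 (-0.07 ± 0.15, adjusted p = 0.78), Cd3g 4.05 to 4.23 and Cd8a 6.29 to 6.51 on the 4 arrays. Of 9 cytotoxic and NK genes 0 passed, and Gzmb, the granzyme B gene, read 5.43 and 5.72 against 5.55 and 5.08, under the filter level throughout. The list means, 6.41 and 6.55 against 6.53 and 6.62 for T cells and 5.48 and 5.70 against 5.53 and 5.58 for cytotoxic cells, overlapped between groups for both lists. The cytotoxic means were under the filter level on all 4 arrays, as were 4 of the 9 genes, so they cannot show whether these cells changed. In the B and plasma cell list Sdc1 alone passed, falling 3.58-fold. Syndecan-1, its product, is also made by epithelial and tumour cells. Dendritic cell markers gave 1 fall among 8, Batf3, which did not pass without combination array 2 or either vehicle array, and neutrophil markers 0 calls among 4.

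**Figure D4:**
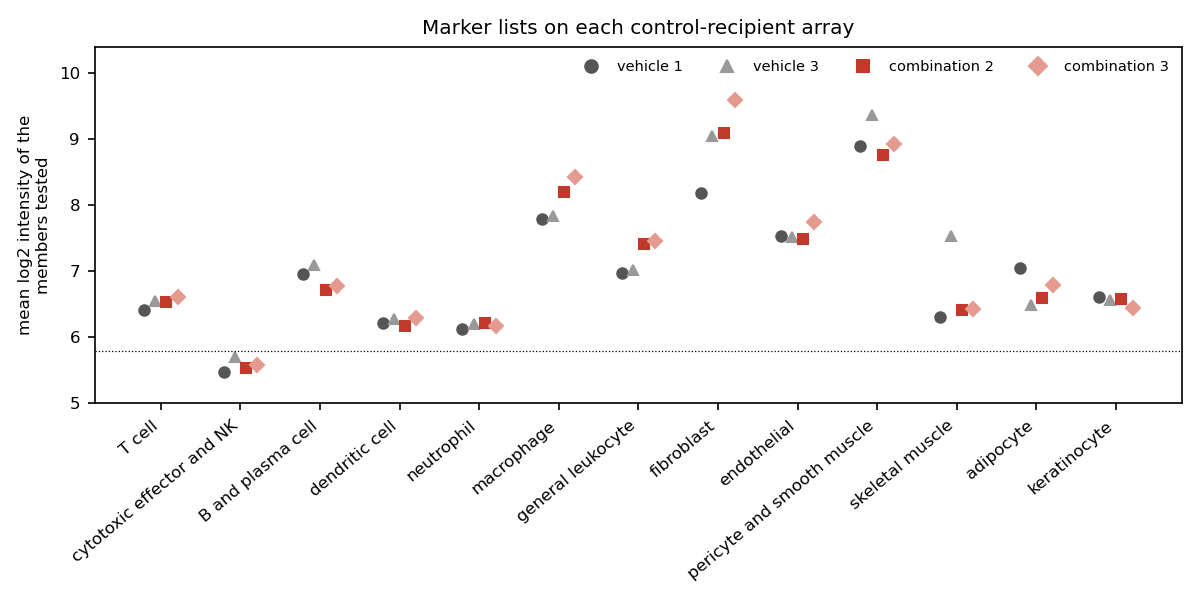
Mean log2 intensity of the tested members of each marker list (y axis) on each control-recipient array (symbols), with the filter level of 5.79 dotted. Macrophage and leukocyte means are higher on both combination arrays, vehicle array 3 stands apart for skeletal muscle (7.54 against 6.31 to 6.42), and vehicle array 1 is lowest for fibroblasts (8.18).

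Stromal markers differed between the vehicle arrays, which limits what this comparison can show for them. Of 18 fibroblast markers 2 rose (11.1%, against 18.7% of all genes) and 0 fell, and more rose without vehicle array 3. Dcn, the decorin gene, read 7.61 and 8.44 against 10.58 and 11.11 (7.08-fold, adjusted p = 0.0031) and Lum, the lumican gene, 6.91 and 8.17 against 10.45 and 10.68 (8.14-fold, adjusted p = 0.0045), without overlap. Col1a1, the main fibroblast collagen, read 8.85 and 10.77 against 10.60 and 11.50 and did not pass (1.24 ± 0.76, adjusted p = 0.24). Of 17 endothelial genes 2 rose and 1 fell (11.8% and 5.88%, against 18.7% and 16.7% of all genes). Both counts changed with the array left out. Pecam1 read 6.66 and 6.94 against 6.79 and 7.13 (0.16 ± 0.19, adjusted p = 0.56), and Vwf rose to 6.55 and 7.08 from levels under the filter. Of 11 pericyte and smooth muscle genes 3 fell and 0 rose, with 1 falling without combination array 2. The falls were 27.3% of this list, against 16.7% of all genes. Mcam, which melanoma cells also carry, fell from 11.95 and 12.07 to 10.15 and 10.21 (3.55-fold). Adipocyte, keratinocyte and skeletal muscle lists had 0 calls among 7, 5 and 10 genes; without vehicle array 1, 5 muscle genes were lower, Acta1 among them (-3.79, adjusted p = 7.11e-06). Of 12 housekeeping genes 2 fell (16.7%, the same share as over all genes). They were Hprt, by 1.01 ± 0.11, and Tfrc, the transferrin receptor gene that proliferating cells induce, by 1.54 ± 0.29.

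The same 2 drugs were compared with vehicle in pmel-1 recipients, on 3 and 2 other arrays. Both comparisons share the fit's variance, the probe set chosen for each gene and the filter of genes. In pmel-1 recipients 3356 genes rose (24.3%) and 2926 fell (21.2%). Genes that rose in both kinds of recipient numbered 1953, 75.9% of the rises in control and 58.2% of those in pmel-1 recipients, and 1808 fell in both, 78.5% and 61.8% of the falls. Only 11 passed in opposite directions. The 3′ minus 5′ signal (log2) was 0.864 to 1.31 on the pmel-1 combination arrays, against 0.183 and 0.224 on the pmel-1 vehicle arrays. The control arrays do not have such a gap.

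The effect of the combination differed between recipients in 39 genes (0.283% of those tested), more positive in pmel-1 recipients for 32 and less for 7. This count was 0 without either control combination array, without control vehicle array 3 or without pmel-1 vehicle array 1. It was 25 without control vehicle array 1, 19 and 11 without pmel-1 combination arrays 2 and 1, and 5 without pmel-1 vehicle array 2. Among the lists, the 39 held 5 of 10 GBP and IRG genes, 4 of 16 MHC class I genes and 3 of 8 MHC class II genes. They also held 3 of 12 T cell genes, 3 of 9 cytotoxic genes and 2 of 28 type I interferon genes. The replication, ribosome, sterol, Hox and both melanosome lists held 0. On all 4 control arrays, 4 cytotoxic, 3 T cell, 1 GBP and IRG and 1 MHC class II gene were under the filter level. Those genes passed the filter through pmel-1 arrays only, so the shares of these lists depend in part on that selection. The log2 change of Cxcl9 was 4.19 in pmel-1 recipients, while all 4 control arrays were under the filter level; its difference passed (adjusted p = 0.022) but has no exact size. That of Psmb8 was 0.01 in control and 1.95 in pmel-1 recipients (difference 1.94 ± 0.26, adjusted p = 0.039), and H2-Eb1 by 0.66 and 3.42 (difference 2.76 ± 0.38, adjusted p = 0.039). Values for pigment, replication and ERK-dependent genes in control and pmel-1 recipients were, for Pmel 1.53 and 1.37, for Trpm1 3.69 and 3.92, for Cdc6 -2.61 and -2.10 and for Etv4 -3.30 and -3.28. The change of Irf8 was -3.28 in control and -0.51 in pmel-1 recipients, a difference of 2.77 ± 0.50 that did not pass (adjusted p = 0.055).

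In the opposite direction, Serpinb1a, a protease inhibitor gene, rose from 9.30 and 9.27 to 10.79 and 11.08 in control recipients (1.65 ± 0.13), against 0.16 in pmel-1 recipients (difference -1.50 ± 0.18, adjusted p = 0.031). Gjc3, a glial gap junction gene, had changes of 0.96 and -0.78 (difference -1.74 ± 0.23, adjusted p = 0.039). With probe sets averaged, the differences of Gjc3 (-1.14, adjusted p = 0.10) and Psmb8 (1.84, adjusted p = 0.064) did not pass. With the 3′ to 5′ signal as a covariate 0 genes passed, and differences were 1.59 for Psmb8, 2.13 for H2-Eb1, -1.44 for Serpinb1a and -1.41 for Gjc3 (adjusted p = 0.30 for each).

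**Figure D5:**
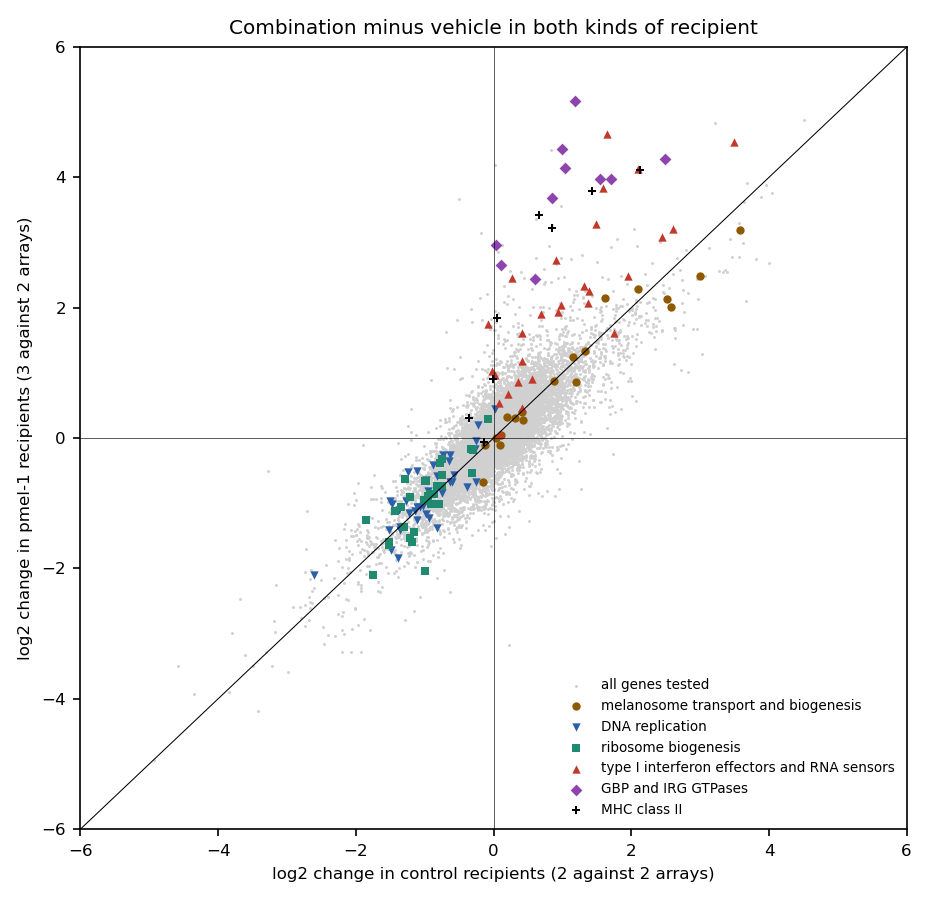
Log2 change with the combination in control recipients (x axis, 2 against 2 arrays) and in pmel-1 recipients (y axis, 3 against 2 arrays), 1 point per gene tested, with members of 6 lists coloured and the line of equal change. Melanosome, replication and ribosome genes lie near the line; the GBP and IRG genes, with a median change of 1.01 in control recipients, lie above it.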

How the data were processed

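Total RNA was hybridised to Affymetrix GeneChip mouse arrays. The authors deposited log2 values made by RMA with the affy package, per the submitters' processing notes. Software versions, the probe set definition and detection calls were not stated. RMA normalizes between arrays, so values are relative. Of 45101 probe sets, 34945 had 1 gene symbol, 932 several and 9160 none, and 64 were controls. The brightest probe set stood for each of 18193 symbols, and 13785 genes above 5.79 (40th percentile) on at least 2 arrays were tested. Group means over all 13 arrays were fitted with limma 3.58.1 in R 4.3.3, which shares one spread per gene, and p-values were adjusted by Benjamini-Hochberg (threshold 0.05). The scripts were tested on simulated data. Precision is limited by 2 arrays a group.

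Named were the 12 largest rises and falls whose sides do not overlap, the first gene of each list, up to 8 called members per list, defining cell markers, and up to 8 genes with an interaction each way. Mlana and Tyrp1 were added after their values were seen. The comparison, lists and rule were chosen with earlier results of these data known. The control groups share only replicate number 3, which gives no pairs.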

Additional observations from a re-analysis of the deposited data

Results flagged for a closer look

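The effect of the combination differed between pmel-1 and control recipients, by the interaction term in limma, in 39 genes. With the 3′ to 5′ signal as a covariate this count was 0. Differences (pmel-1 minus control effect, log2) among the genes named were 2.76 for H2-Eb1, 2.16 for Ptprc, 2.10 for Psmb9 and 1.94 for Psmb8. They were -1.50 for Serpinb1a and -1.74 for Gjc3. The chemokine gene Cxcl9 gave 4.17, but it was under the filter level on all 4 control arrays. It was tested only because pmel-1 arrays read above that level, and the size of its difference is not exact. In control recipients Cxcl9, Psmb8, Psmb9, H2-Eb1 and Ptprc did not pass. In the fit of the 4 control arrays alone H2-Eb1 (0.66, adjusted p = 0.048) and Ptprc (0.61, adjusted p = 0.048) passed, as they did with the 3′ to 5′ signal as a covariate (adjusted p = 0.038 and 0.013). Ptprc also passed without the 7 pmel-1 arrays given a drug (adjusted p = 0.034).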

How the results depend on the processing

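The number of genes changed in control recipients (4874) lay between 4467 and 5362 under other normalizations, filters, probe set rules, sample sets and variance models and with the 3′ to 5′ signal as a covariate, and between 3265 and 3939 with 1 array left out. With 1 array left out, 1666 to 2146 genes were higher and 1505 to 1940 lower. Averaging probe sets turned the sign of 32 of the genes that passed. The control groups share only replicate number 3, whose 2 arrays' deviations correlated at 0.067, so the numbers were not taken as pairs; with the replicate block over all 13 arrays 3884 genes passed. The interaction count (39) was 10 with arrays centred, 90 when fitted on the 9 combination and vehicle arrays, 65 with array weights, 1 with the replicate block, 0 with the covariate (where Cxcl9 was 3.61 against 4.17, Psmb9 1.77 against 2.10 and Serpinb1a -1.44 against -1.50) and 0 to 33 with 1 array left out; the cause was not tested.

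Among the genes named in the text, those whose value turned sign had not passed. Bcl2l11 was -0.36 (adjusted p = 0.0067) with probe sets averaged and -0.0079 with the replicate block. Psmb8 was -0.0094 after quantile normalization, -0.069 with probe sets averaged, -0.072 with the replicate block and -0.000252 with the covariate. Cxcl9 was -0.14 with the replicate block and -0.000925 with the covariate. With 1 control array left out, Psmb8 ranged from -0.16 to 0.19, Cxcl9 from -0.20 to 0.24, Cd3e from -0.19 to 0.063 and Pecam1 from -0.014 to 0.33. Differences between values under 5.79 cannot be told from background.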
